A study of Mus musculus with 18 samples.

Results

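The fatty acid binding proteins (Fabp genes) were followed in testes of hypogonadal (hpg) mice treated with follicle-stimulating hormone (FSH). They were found as every probe set that the platform annotation pairs with exactly 1 gene symbol, that symbol being Fabp1, Fabp2, Fabp3, Fabp4, Fabp5, Fabp6, Fabp7 or Fabp9. This gave 14 probe sets for 8 genes, of 22690 probe sets on the array, and no probe set pairing a Fabp symbol with another gene was met (0 found). The family was taken up because Fabp5 rose at all times after FSH, so the values of Fabp5 against the controls chose it and are given as a description, with no test.

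Fatty acid binding proteins are small cytosolic proteins that hold a long-chain fatty acid inside a barrel of strands and carry it between membranes, enzymes and the nucleus. Each tissue has its own member: the liver (Fabp1), intestine (Fabp2 and, for bile acids, Fabp6), heart and skeletal muscle (Fabp3), fat cells and macrophages (Fabp4), skin and many other cells (Fabp5) and brain (Fabp7), and Fabp9 is the testis member, found in male germ cells. In the seminiferous tubule, Sertoli cells carry the FSH receptor, feed the germ cells, and engulf and break down germ cell remnants, whose lipids they burn or store in droplets.

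All 18 animals were hpg males aged 10 weeks. The hpg defect, shared by the controls, removes gonadotrophin-releasing hormone, and the pituitary then makes little gonadotrophin. The treated mice received recombinant FSH (rFSH, Gonal F), 8 IU in 0.2 ml of phosphate-buffered saline under the skin every 12 h, for 12 h (4 mice), 24 h (3 mice) or 72 h (4 mice), and were killed 1 h after the last injection. The 7 controls were hpg males of that age left untreated, so they had no injection of vehicle. RNA of a whole testis was read on an Affymetrix MOE430A array, 1 array a mouse, and the deposited values are log2 expression per probe set. In whole testis, fewer cells of a type and less RNA per cell cannot be told apart.

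The arrays fell into 2 sets, and each time was compared only with controls of its own set. The 12 arrays of the 12 h and 72 h mice and controls 4 to 7 had Dap spike-in signals of 8.05 to 8.86 and 18S rRNA signals of 3.35 to 3.70, whereas the 6 arrays of the 24 h mice and controls 1 to 3 had Dap signals of 2.70 to 3.41 and 18S signals of 9.07 to 11.7. Sox9 and Wt1, which define Sertoli cells, averaged 8.17 to 9.11 and 8.42 to 8.98 over the 5 groups. Controls 6 and 1 stood apart from the rest in markers of spermatids and of fat cells. Control 6 had a summed level of 75.4 over 7 markers of spermatids, against 19.2 to 25.0 in the other 17 arrays, and control 1 had 4.92 for Adipoq, the fat cell hormone adiponectin, against 2.12 to 2.53 in the other 17.

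Of the 14 Fabp probe sets, 7 were at the floor of the array, taken as a mean below 4 in each of the 5 groups, against 42.3% of all probe sets. Fabp2, Fabp6 and Fabp7 were at the floor in their sole probe set, whereas Fabp1, Fabp4 and Fabp9 each had floor-level and higher probe sets. The floor-level probe set with the highest group mean was Fabp9 1421804_at, with 3.72, and the lowest such mean above the threshold was that of Fabp1 1448764_a_at, with 4.33. A floor-level value is only a bound on the transcript.

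Differences were tested with limma over all 22626 probe sets that are not controls of the array, and a probe set was called at a Benjamini-Hochberg adjusted p under 0.05. Calls against the controls were counted over the 12 probe sets of the other 7 genes, since Fabp5 chose the family. At 12 h, 0 of the 12 were called, where 5.35% of all probe sets were called (3.2% higher, 2.16% lower). At 24 h, 1 was called, of Fabp1, where 13.4% of all were called (6.1% higher, 7.26% lower). At 72 h, 1 was called, of Fabp3, where 6.13% of all were called (3.63% higher, 2.5% lower). Both were higher after FSH, and 0 of the 12 were lower at any of the 3 times by limma. With an unadjusted p below 0.05 there were 0, 3 and 2 of the 12 at 12 h, 24 h and 72 h, with 0 of them lower. The share of all probe sets at that unadjusted level is not given, so unadjusted counts, here and below, cannot be set against the array. A count of 1 in 12 is near the share of the array as a whole. The median difference over the 12 was -0.00 at 12 h, 0.09 at 24 h and 0.08 at 72 h, beside medians over all probe sets of -0.00, 0.04 and 0.01.

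**Figure D1:**
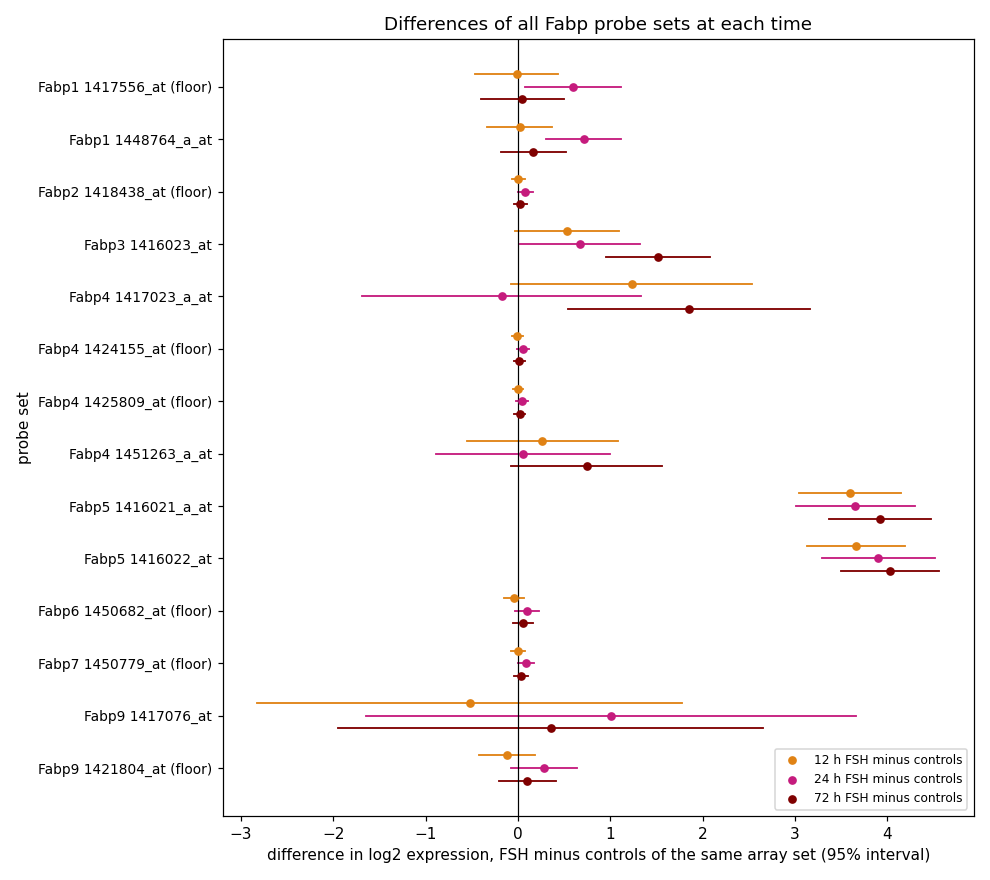
Difference in log2 expression, FSH minus controls of the same array set, for each of the 14 Fabp probe sets at 12 h, 24 h and 72 h; points are differences of means and lines their 95% confidence intervals. The 6 differences of Fabp5 lie between 3.60 and 4.03, Fabp3 reaches 1.52 at 72 h, and the probe sets marked floor lie close to 0 apart from Fabp1 and Fabp9 at 24 h.

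Fabp5, the epidermal member, which also carries fatty acids in macrophages and many epithelia, had the largest differences of the family. Its brighter probe set (1416021_a_at) read 10.41, 10.00, 9.22 and 9.62 in the 12 h testes, 9.82, 10.05, 10.26 and 10.40 in the 72 h testes, and 5.98, 6.69, 6.40 and 5.79 in controls 4 to 7. In the other array set it read 9.42, 9.52 and 9.82 in the 24 h testes, and 6.38, 5.53 and 5.89 in controls 1 to 3. The lowest of the 11 FSH arrays, at 9.22, lay above the highest of the 7 controls, at 6.69, so FSH and control testes did not overlap in either set. The means were 9.81 ± 0.51 at 12 h (SD, n = 4), 10.13 ± 0.25 at 72 h (n = 4) and 6.21 ± 0.40 in their controls (n = 4), and 9.59 ± 0.21 at 24 h (n = 3) against 5.93 ± 0.43 in its controls (n = 3).

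Against its own controls this probe set was higher by 3.60 ± 0.26 (SE) at 12 h, a 12.1-fold difference, by 3.65 ± 0.30 (12.6-fold) at 24 h and by 3.92 ± 0.26 (15.1-fold) at 72 h. The other probe set (1416022_at) read 9.73, 9.22, 8.64 and 9.05 in the 12 h testes and 9.31, 9.50, 9.77 and 9.57 in the 72 h testes, against 5.37, 5.97, 5.84 and 4.82 in controls 4 to 7. It read 8.64, 8.37 and 8.81 in the 24 h testes, against 4.95, 4.48 and 4.68 in controls 1 to 3. Its differences were 3.66 ± 0.25 (12.6-fold), 3.90 ± 0.29 (14.9-fold) and 4.03 ± 0.25 (16.4-fold) at the 3 times, and over the 18 arrays, each minus the mean of its set's controls, the 2 probe sets had a Pearson correlation of 0.997. They share the gene and every library.

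Fabp5 was already high at the first time sampled, and no later change was called. These time differences use the same arrays whose rise at all times chose the family. The 72 h testes differed from the 12 h testes by 0.32 ± 0.26 in 1416021_a_at (95% confidence interval -0.23 to 0.88, limma adjusted p = 0.859) and by 0.38 ± 0.25 in 1416022_at (-0.16 to 0.91, limma adjusted p = 0.744). The response at 24 h less that at 12 h, each against its own controls, was 0.06 ± 0.40 (-0.79 to 0.91, limma adjusted p = 0.940) and 0.24 ± 0.38 (-0.57 to 1.06, limma adjusted p = 0.720). The response at 72 h less that at 24 h was 0.26 ± 0.40 (-0.58 to 1.11, limma adjusted p = 0.786) and 0.13 ± 0.38 (-0.68 to 0.94, limma adjusted p = 0.889). The upper ends of these intervals lie between 0.88 and 1.11, so a later rise up to that size is not excluded. The array sets differed without treatment too, although 0 of the 14 Fabp probe sets were called between the controls of the sets by limma, where 9.31% of all were. An unadjusted p below 0.05 was met in 6 of the 14, and the share of all at that level is not given. Probe set 1416022_at was lower in controls 1 to 3 than in controls 4 to 7, by -0.80 (limma adjusted p = 0.0754), and by -1.03 without control 7 (limma adjusted p = 0.0241).

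Markers of several cell types differed between FSH and control testes. Of 8 macrophage markers, 2 were higher at 72 h, and 1 was lower, with 0 higher, at each of the earlier times (limma). The summed macrophage level was 38.4 to 40.0 at 12 h and 42.5 to 44.2 at 72 h, against 39.2 to 41.7 in controls 4 to 7, and 38.0 to 40.5 at 24 h against 37.7 to 39.2 in controls 1 to 3. Of 5 measured keratinocyte markers 4 were at the floor, Krt5 and Krt14 among them, and 0 were called at any of the 3 times by limma (at an unadjusted p below 0.05, 1 higher and 1 lower at 24 h). Leydig cells make androgens between the tubules. Of 5 Leydig cell markers 2 were higher at 12 h, 3 at 24 h and 0 at 72 h by limma (with an unadjusted p below 0.05, 4, 3 and 1 were higher and 0 lower). Their sum was 42.3 to 45.4 at 12 h and 36.9 to 40.5 at 72 h, against 33.6 to 39.7 in controls 4 to 7. The 39.7 was that of control 5, and controls 4, 6 and 7 had 34.8, 34.4 and 33.6. In the other set the Leydig sum was 41.6 to 46.1 at 24 h against 33.5 to 34.4 in controls 1 to 3. The markers that rose were Star, the cholesterol carrier of mitochondria (2.53 at 12 h and 2.5 at 24 h), Cyp17a1, an enzyme of androgen synthesis (2.86 and 4.62), and Cyp11a1, which starts steroid synthesis (4.03 at 24 h), while Hsd3b1 and Nr5a1 were called at no time. Of 6 markers of the myoid cells, which wrap the tubules and contract, Myl9 alone was called, higher by 0.52 at 12 h (with an unadjusted p below 0.05, 4 were higher at 12 h, 0 at 24 h and 2 at 72 h). The myoid sum was 47.2 to 50.2 at 12 h and 46.2 to 48.5 at 72 h, against 44.2 to 47.4 in controls 4 to 7, and 45.8 to 46.8 at 24 h against 43.2 to 45.5 in controls 1 to 3.

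The summed level of 9 Sertoli cell markers was 72.6 to 74.6 at 12 h and 78.4 to 80.4 at 72 h, against 71.4 to 73.3 in controls 4 to 7, and 76.0 to 78.9 at 24 h against 71.9 to 73.2 in controls 1 to 3. The higher sum at 72 h lay in Rhox5, a homeobox gene (4.27), Inha, the inhibin alpha subunit (1.94), Shbg, the androgen binding protein (1.22), and Dhh, a hedgehog ligand (0.64), all called. The other 5 markers were not called there and had differences from -0.61 (Sox9) to -0.09 (Aqp8, at the floor). The part of any of these cell types in the Fabp5 values was not tested.

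**Figure D2:**
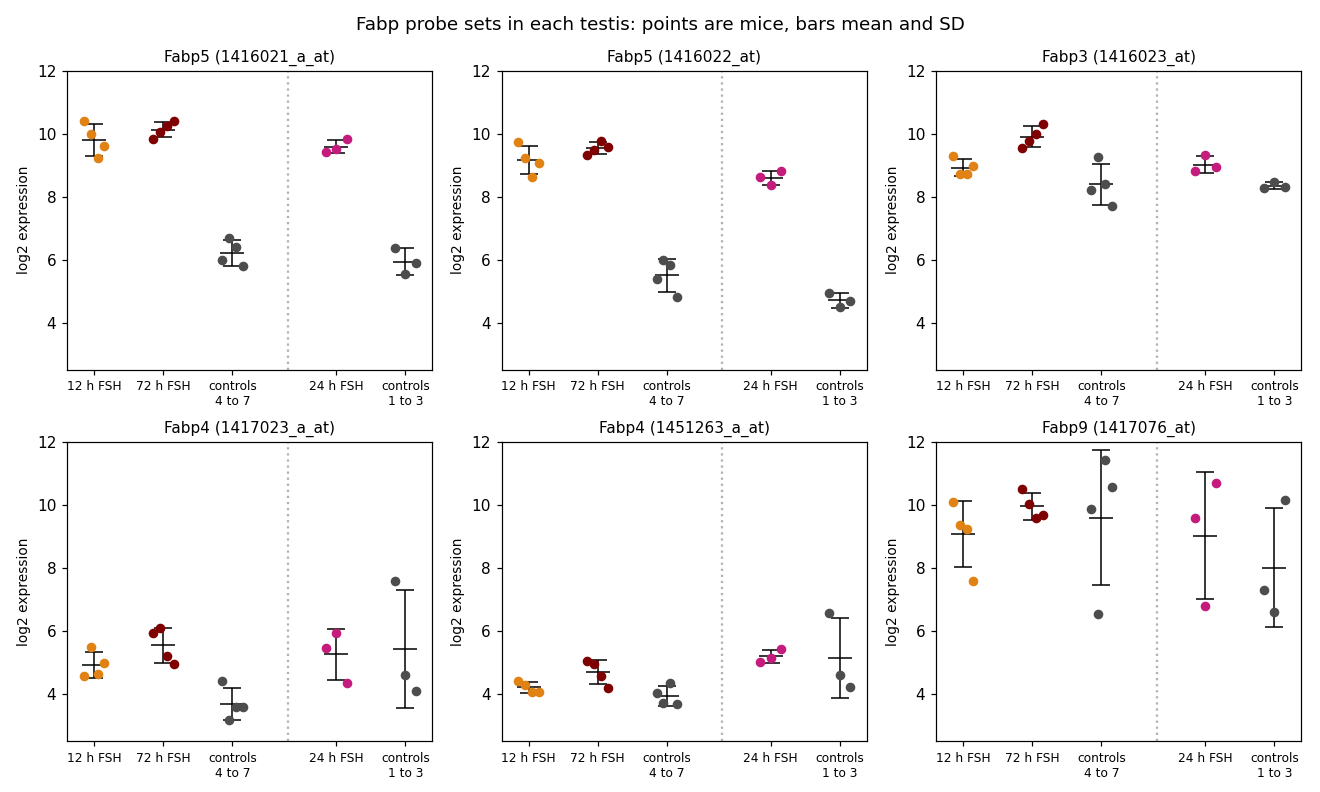
Log2 expression of 6 of the 7 Fabp probe sets above the floor in each testis; points are mice, bars mean and SD, and the dotted line parts the 2 array sets. FSH testes stand left of the controls of their set. Fabp5 is separated from its controls at every time, Fabp3 at 72 h and 24 h, Fabp4 1417023_a_at at 12 h and 72 h, and Fabp9 at no time. Of all probe sets, 5.71%, 25.8% and 6.91% lay wholly above their controls at 12 h, 24 h and 72 h.

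Fabp3, the heart member, which feeds fatty acids to mitochondria in muscle, was well above the floor in every testis and rose at 72 h. Its probe set (1416023_at) read 9.29, 8.71, 8.72 and 8.98 at 12 h and 9.55, 9.77, 10.01 and 10.32 at 72 h, against 8.21, 9.25, 8.40 and 7.70 in controls 4 to 7. It read 8.80, 9.31 and 8.94 at 24 h, against 8.26, 8.47 and 8.30 in controls 1 to 3. The 72 h testes all lay above their controls and the 24 h testes all lay above theirs, whereas the 12 h testes overlapped with control 5, the highest. Of all probe sets, 6.91% lay wholly above their controls at 72 h and 25.8% at 24 h.

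The rise at 72 h was 1.52 ± 0.26, a 2.86-fold difference (limma adjusted p = 0.00271), and it stayed called without each array in turn (adjusted p at most 0.0110). At 12 h the difference was 0.53 ± 0.26 (limma adjusted p = 0.367), and without control 5 it was 0.82 and called (limma adjusted p = 0.0388). At 24 h it was 0.67 ± 0.30 (limma adjusted p = 0.149). Every 72 h testis exceeded every 12 h testis, by 0.99 ± 0.26 on average (95% confidence interval 0.42 to 1.55, 1.98-fold), which missed the threshold (limma adjusted p = 0.0699) and passed it without control 5 (0.0165), without control 7 (0.0380), or when dim probe sets were left out (0.0335, testing probe sets with a mean of at least 4). The arrays left out there are controls, which enter this difference only through the shared estimate of the spread.

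Markers of striated muscle, where Fabp3 is abundant, were low. Of 7 muscle markers 5 were at the floor, with Acta1 at 2.61 to 3.06 and Ckm at 2.20 to 3.16 over the 18 arrays. The muscle sum was 21.4 to 22.7 at 72 h, against 19.2 to 20.3 in controls 4 to 7, and the only marker called there was Myh1, a myosin heavy chain, which rose by 2.13 (limma adjusted p = 2.95e-06). Its part in the Fabp3 value was not tested.

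Fabp4, the member of fat cells, macrophages and capillary endothelium, showed probe sets that disagree in level and mice that disagree in value. Its brightest probe set (1417023_a_at) read 4.58, 5.47, 4.64 and 4.97 at 12 h and 5.93, 6.08, 5.19 and 4.95 at 72 h, against 4.40, 3.17, 3.59 and 3.58 in controls 4 to 7. It read 5.46, 5.95 and 4.35 at 24 h, against 7.58, 4.61 and 4.10 in controls 1 to 3. In the first set every FSH testis lay above every control, and in the other set control 1 was above all 3 FSH testes. Of all probe sets, 5.71% lay wholly above their controls at 12 h and 6.91% at 72 h.

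The differences were 1.23 ± 0.61 at 12 h (limma adjusted p = 0.368), -0.18 ± 0.71 at 24 h (limma adjusted p = 0.886) and 1.85 ± 0.61 at 72 h (limma adjusted p = 0.101). Controls 4 to 7 averaged 3.69 in this probe set and 3.94 in the second, under the level of 4 taken as the floor, so no fold is given. Control 1, which enters the 72 h comparison only through the shared estimate of the spread, decided its call: without it the 72 h difference was called (limma adjusted p = 0.00915), and the 24 h difference became 0.90 (limma adjusted p = 0.290). The 72 h difference was also called in a fit of its own array set alone (limma adjusted p = 0.00814) and with the 24 h arrays paired with their controls by number (0.0320). The second probe set (1451263_a_at) read 4.42, 4.29, 4.07 and 4.05 at 12 h and 5.04, 4.95, 4.56 and 4.20 at 72 h, against 4.02, 3.72, 4.36 and 3.67 in controls 4 to 7, and its differences of 0.26 ± 0.38 and 0.74 ± 0.38 were not called (limma adjusted p = 1.0 and 0.366). Without control 1 its 72 h difference was called (limma adjusted p = 0.0389). At 24 h it read 5.01, 5.15 and 5.42, against 6.58, 4.61 and 4.22 in controls 1 to 3, a difference of 0.05 ± 0.44 (limma adjusted p = 0.949).

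The other Fabp4 probe sets, 1424155_at and 1425809_at, stayed at the floor in every array, with highest values of 2.14 and 2.19. Fat cell markers were also low: the 5 measured of 8 had group means at the floor, and their sum was 11.5 to 12.1 at 12 h and 11.8 to 12.4 at 72 h, against 11.6 to 12.4 in controls 4 to 7, and 13.1 to 13.6 at 24 h against 12.6 to 15.5 in controls 1 to 3. Control 1 held the highest fat sum, with Adipoq at 4.92 and Retn, the fat cell hormone resistin, at 2.68 against 2.06 to 2.20 in the other 17 arrays. Over the 7 controls the fat sum and 1417023_a_at had a Pearson correlation of 0.933, and over the 11 FSH arrays of 0.221. Over all 18 arrays it was 0.634, and 0.299 without control 1. For the second probe set, 1451263_a_at, the correlation with the fat sum was 0.974 over the 7 controls, 0.876 over the 11 FSH arrays, 0.909 over all 18 and 0.805 without control 1. These points share the array and its set, and the means of the sets were not subtracted here. The floor-level Fabp probe sets also had correlations with the fat sum over all 18 arrays, from 0.406 (Fabp1 1417556_at) to 0.689 (Fabp6). The part of the array set and of dim probe sets in these correlations was not tested. At 72 h the macrophage markers Cd68 and Mrc1 rose by 1.34 and 0.79 (limma adjusted p = 0.000583 and 0.00801), the 2 called of 8. The defining markers Adgre1 and Csf1r were not called there (0.17 and -0.29, limma adjusted p = 0.322 and 0.468). Csf1r was called lower at 12 h and 24 h (-0.85 and -0.73, limma adjusted p = 0.00815 and 0.0274). Of the 7 endothelial markers 0 were called at any time by limma (at an unadjusted p below 0.05, 1 at 12 h, which was lower). The part of fat cells and macrophages in the Fabp4 values was not tested.

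**Figure D3:**
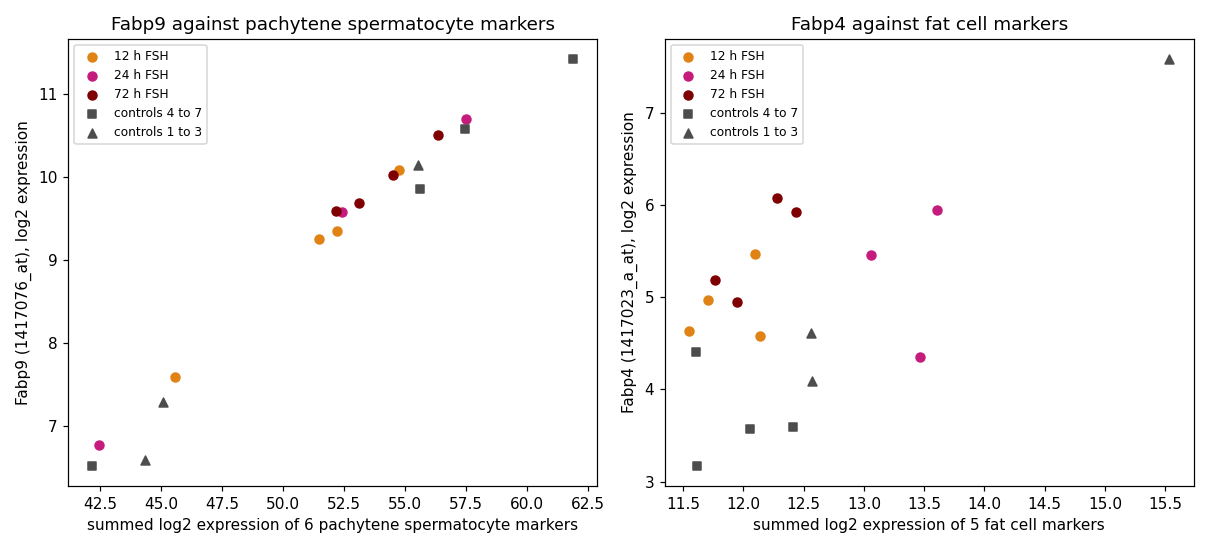
Left, log2 expression of Fabp9 (1417076_at) against the summed log2 expression of 6 pachytene spermatocyte markers; right, Fabp4 (1417023_a_at) against the sum of 5 fat cell markers, 1 point per array. Fabp9 varies with the spermatocyte sum in FSH and control testes alike, from 6.53 to 11.42, and control 1 stands apart at the top right of the Fabp4 panel.

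Fabp9, the germ cell member, varied widely between mice of a group and did not part FSH testes from controls. Its probe set 1417076_at read 10.09, 9.36, 9.25 and 7.60 at 12 h and 10.51, 10.03, 9.59 and 9.69 at 72 h, against 9.86, 6.53, 11.42 and 10.58 in controls 4 to 7. It read 9.58, 6.78 and 10.70 at 24 h, against 7.29, 6.59 and 10.15 in controls 1 to 3. Every treated group overlapped with its controls, and the 7 untreated mice spanned a 29.8-fold range by themselves.

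The differences were -0.53 ± 1.07 at 12 h (95% confidence interval -2.83 to 1.77, limma adjusted p = 1.0), 1.01 ± 1.24 at 24 h (-1.65 to 3.67, limma adjusted p = 0.596) and 0.35 ± 1.07 at 72 h (-1.95 to 2.65, limma adjusted p = 0.937). Each interval spans more than 4 log2 units, so a difference of several fold in either direction is not excluded. Leaving out control 6, which carries the spermatid transcripts, gave 0.08 at 12 h, and leaving out control 5, the lowest, gave -1.55; neither was called. Fabp9 varied with the markers of pachytene spermatocytes: over the 18 arrays its Pearson correlation with the sum of 6 markers was 0.988, and it was 0.997 over the 11 FSH arrays, 0.994 over the 7 controls and 0.990 without control 6. Within the pachytene sum Pgk2 (3.11 to 10.04), Ldhc (6.48 to 12.42) and Piwil1 (3.32 to 8.55) varied most over the arrays. Sycp1 (8.80 to 10.62) and Sycp3 (11.09 to 12.33) varied least. With the spermatid sum the correlation of Fabp9 was 0.344, and -0.12 without control 6. These are descriptions over arrays that share their tissue and processing. The pachytene sum was 45.6 to 54.8 at 12 h and 52.2 to 56.4 at 72 h, against 42.2 to 61.9 in controls 4 to 7, and 42.5 to 57.5 at 24 h against 44.4 to 55.6 in controls 1 to 3. The second probe set, 1421804_at, was at the floor in every group. Its correlation with the first was 0.375, and 0.777 after subtracting the mean of the same-set controls.

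Fabp1, the liver member, gave the sole call at 24 h among the 12 probe sets, close to the floor. Its probe set 1448764_a_at read 3.96, 4.68 and 4.35 at 24 h, against 3.31, 3.78 and 3.78 in controls 1 to 3, and all 3 FSH testes lay above their controls. At 12 h it read 3.32, 3.28, 2.99 and 2.96 and at 72 h 3.52, 3.36, 3.17 and 3.10, against 2.93, 2.95, 3.32 and 3.28 in controls 4 to 7, with overlap at both times. The 24 h difference was 0.71 ± 0.19 (limma adjusted p = 0.0251). This probe set is above the floor through its 24 h mean of 4.33 alone, and its controls averaged 3.62, under the floor, so no fold is given. It was not called without 24 h replicate 2, without 24 h replicate 3 or without control 1 (adjusted p at most 0.119), nor in a fit of the 6 arrays of that set alone (0.227). With the arrays paired by number it was called (0.00583), and so was the floor-level probe set 1417556_at, which read 3.03, 4.38 and 3.05 at 24 h against 2.82, 3.01 and 2.84 in controls 1 to 3 (0.59 ± 0.16, limma adjusted p = 0.0235 paired and 0.115 unpaired).

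Dim probe sets across the array often read higher at 24 h. Every 24 h array lay above every control of its set for 7 of the 12 Fabp probe sets other than those of Fabp5, where 25.8% of all probe sets did so. Among the 7 floor-level members 5 did, of Fabp1, Fabp2, Fabp4 and Fabp7, beside 43.4% of the 9569 floor-level probe sets of the array. The median 24 h difference over those 9569 was 0.07, beside 0.71 for Fabp1 1448764_a_at. At 12 h and 72 h, 1 and 2 of the 12 lay wholly above their controls, where 5.71% and 6.91% of all did, and none was floor-level (0 of 7). Fabp1 1448764_a_at had a Pearson correlation of 0.918 over the 18 arrays with the floor-level Fabp2 and of 0.841 with the floor-level Fabp7, each after subtracting the mean of the same-set controls. The part of the shift of dim probe sets in the Fabp1 call was not tested.

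Fabp2, which takes up dietary fat in the intestine, Fabp6, which binds bile acids in the ileum, and Fabp7, the member of brain and glia, gave no value to interpret beyond a bound. Over all 18 arrays Fabp2 (1418438_at) stayed within 2.38 to 2.62, Fabp6 (1450682_at) within 2.70 to 3.20 and Fabp7 (1450779_at) within 2.35 to 2.62. Their differences from the controls ran from -0.05 (Fabp6 at 12 h) to 0.10 (Fabp6 at 24 h), and 0 of the 9 were called by limma. Of Fabp6, Fabp2 and Fabp7, 0 differences had an unadjusted p below 0.05.

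Between times, 0 of the 14 probe sets were called in each of the 3 comparisons by limma, where 2.36%, 0.875% and 0.371% of all probe sets were called for 72 h against 12 h, 24 h against 12 h and 72 h against 24 h. With an unadjusted p below 0.05 there were 1, 1 and 2 members, and the share of all probe sets at that level is not given. A single probe set, that of Fabp3, had all its 72 h arrays above all its 12 h arrays, where 4.41% of all probe sets did.

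Promoter sequences were at hand for 5 of the 8 members (Fabp1, Fabp2, Fabp3, Fabp6 and Fabp7) in RefSeq's annotation of the mouse build GRCm38.p6, and not for Fabp4, Fabp5 and Fabp9. FSH acts on Sertoli cells through cyclic AMP, and TGACG is the core of the element bound by cyclic AMP responsive factors, so the 250 bases before the start were searched for it on both strands. Fabp3, which rose at 72 h, and Fabp6, which stayed at the floor, each held 1 core, and Fabp1, Fabp2 and Fabp7 held 0. They are shown together because the same letters stand before a gene that was measured as changed and before one that was not detected. The core is in capitals (written CGTCA where it lies on the other strand), the sequences run 5′ to 3′ in the direction of the gene, and they cover chr4:130308488-130308737 on the plus strand for Fabp3 and chr11:43601563-43601812 on the minus strand for Fabp6.
Fabp3: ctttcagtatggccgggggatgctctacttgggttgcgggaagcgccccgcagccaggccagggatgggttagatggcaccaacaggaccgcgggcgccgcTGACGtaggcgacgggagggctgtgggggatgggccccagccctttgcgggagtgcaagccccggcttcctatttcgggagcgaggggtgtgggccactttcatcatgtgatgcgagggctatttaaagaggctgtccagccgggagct
Fabp6: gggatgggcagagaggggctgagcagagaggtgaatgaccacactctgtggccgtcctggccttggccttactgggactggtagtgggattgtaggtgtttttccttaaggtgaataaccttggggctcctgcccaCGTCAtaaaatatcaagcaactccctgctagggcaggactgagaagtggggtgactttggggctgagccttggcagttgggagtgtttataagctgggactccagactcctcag
The core stood 149 bases before the start in Fabp3 and 114 in Fabp6. Among 32851 promoter windows of 250 bases, 17.8% held TGACG on either strand, so a match is common. The full element TGACGTCA, which contains the core, was in 1.55% of the windows, and the paired site bound by the fatty acid receptors of the PPAR family, AGGTCA repeated after any 1 base, was in 0.0335%; none of the 5 members held either (0 of 5). TATAAA, also searched on both strands, was in 12.4% of the windows, those of Fabp1 and Fabp6 among them. In Fabp6 these exact letters lie on the other strand (written TTTATA). Variants of TATAAA were not searched, so whether Fabp6 has a TATA box in its own direction was not tested. A match describes these letters and is not a site shown to be bound.

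In the same annotation Fabp5, Fabp9 and Fabp4 lie close together on chromosome 3: the order of protein-coding genes is Fabp5, Pmp2, Fabp9, Fabp4 and Fabp12. Their patterns over the arrays differed. Over the 18 arrays, each minus its set's control mean, Fabp5 1416021_a_at had a Pearson correlation of 0.068 with Fabp9 1417076_at and 0.487 with Fabp4 1417023_a_at, and its correlation with Fabp3, on chromosome 4, was 0.759. The annotation also lists 2 Fabp pseudogenes, and whether the probes match those copies was not tested.

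The genes whose pattern was most like that of Fabp5 were chosen by Pearson correlation over the 18 arrays among 7758 genes above the floor. They were Scara5 (0.972), a receptor for ferritin, Gpd1 (0.971), the glycerol 3-phosphate dehydrogenase of the cytosol, Htatsf1 (0.966), Tuba1a (0.965), an alpha tubulin, Inha (0.965), the inhibin alpha subunit that Sertoli cells make under FSH, Wfdc1 (0.964), Hgsnat (0.964), a lysosomal acetyltransferase, and Gsta4 (0.963), a glutathione transferase. Scara5 was higher than in controls by 2.29 ± 0.15 at 12 h, 2.23 ± 0.17 at 24 h and 2.14 ± 0.15 at 72 h, Gpd1 by 1.92 ± 0.12, 2.0 ± 0.14 and 2.20 ± 0.12, and Inha by 1.87 ± 0.11, 1.75 ± 0.13 and 1.94 ± 0.11. All 8 had smaller differences than Fabp5 at every time. That they too were high at 12 h follows largely from their choice by correlation. The most opposite were Tmem37 (-0.979), Rin2 (-0.963), Coq8a (-0.958) and Hdac5 (-0.952), with differences of -2.88 ± 0.26, -2.77 ± 0.19, -2.33 ± 0.13 and -2.05 ± 0.23 at 12 h. All these genes share a step between FSH and control arrays, and by rank correlation the 8 genes reached 0.628 to 0.905 and only 1 of them remained among the first 8.

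**Figure D4:**
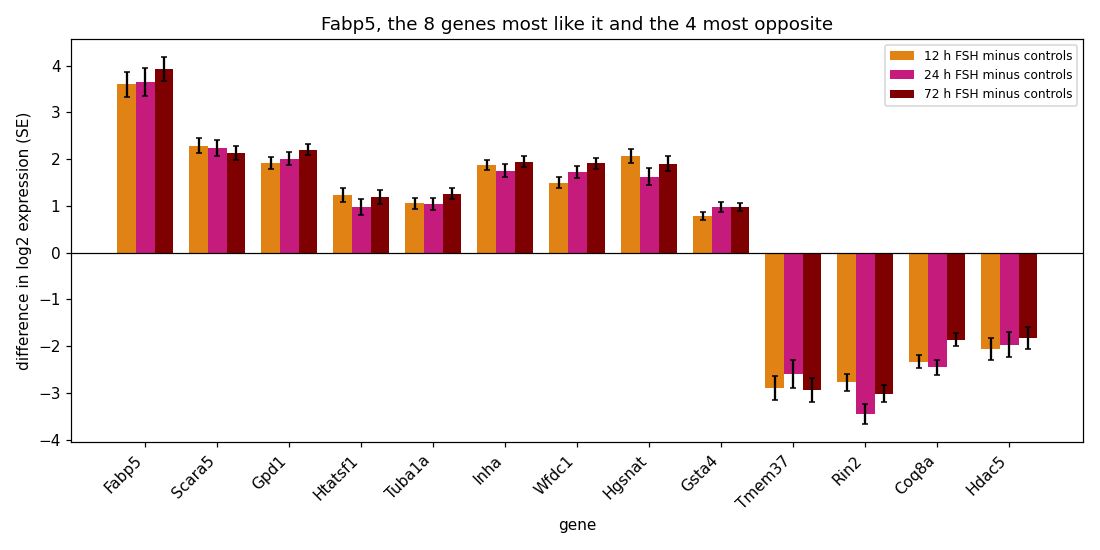
Difference in log2 expression (bars) with its SE, FSH minus controls of the same array set at 12 h, 24 h and 72 h, for Fabp5 (1416021_a_at), the 8 genes most like it and the 4 most opposite. The Fabp5 bars, 3.60 to 3.92, are the tallest. Each gene keeps its side at all 3 times, which follows largely from its choice by correlation with Fabp5.

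The other members above the floor resembled other genes. Most like Fabp3 were Lactb (0.903), Bex4 (0.885) and Pdlim3 (0.883), whose 72 h differences were 1.75 ± 0.26, 0.56 ± 0.14 and 1.12 ± 0.21. Most like Fabp4 was Car3 (0.922), the carbonic anhydrase abundant in fat and muscle, with 8.85 as its highest value in controls 1 to 3, then Snap47 (0.856) and Minpp1 (0.843). Most like Fabp9 were Ldhc (0.991), the lactate dehydrogenase of spermatocytes and itself in the pachytene sum, Meig1 (0.990), needed in meiotic and later germ cells, and Pdcl2 (0.989). Most like Fabp1 were the dim genes Slc17a2 (0.971), Olfm3 (0.970) and Cdh13 (0.969).

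The genes around the family, which bring fatty acids in, activate, store or sense them, were read from 6 lists, 1 probe set a gene. Over all 12393 genes 3.52% were called higher and 2.76% lower at 12 h. The shares were 6.38% higher and 8.45% lower at 24 h, and 4.23% higher and 3.03% lower at 72 h. Of 4 measured relatives in the same protein superfamily, Rbp7, a retinol binder, was the sole one called, at 12 h (1.34 ± 0.36, limma adjusted p = 0.0466), and it was lost without control 1 or control 6. The retinoic acid binder Crabp1 had -0.58 ± 0.17 at 72 h (limma adjusted p = 0.0625), and Crabp2 and Rbp2 were at the floor.

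Of 14 genes of fatty acid uptake and activation, 3 rose and 0 fell at 12 h, 0 rose and 2 fell at 24 h, and 1 rose and 1 fell at 72 h. The 3 that rose at 12 h were Dbi, the acyl-CoA binding protein (1.22 ± 0.15, limma adjusted p = 0.000178), which was called in its 3 other probe sets too, Acsl4, which makes acyl-CoA from arachidonic acid (1.31 ± 0.23, limma adjusted p = 0.00281), and Slc27a3, an acyl-CoA synthetase at the floor in every group (1.30 ± 0.32, limma adjusted p = 0.0247, lost without control 6). Got2, a mitochondrial enzyme also described at the cell surface as a fatty acid binder, had 0.45 ± 0.17 at 12 h (limma adjusted p = 0.180). Chosen after their values were seen, Cd36, a fatty acid transporter, rose by 1.35 ± 0.33 at 72 h (limma adjusted p = 0.0264), which its 2 other probe sets did not share (0.60 and 0.03), and Slc27a2, a very long-chain acyl-CoA synthetase, fell by 1.08 at 72 h. At 72 h the differences of Dbi and Acsl4 were 0.37 ± 0.15 and 0.71 ± 0.23 (limma adjusted p = 0.214 and 0.0951), beside 3.92 for Fabp5.

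The fatty acid receptors were low. Of 8 nuclear receptors 6 were at the floor, Ppara, Ppard, Pparg and Rxrg among them, and the sole call was Rxrb, a retinoid X receptor, which fell by 0.49 at 12 h (limma adjusted p = 0.00396). Of 15 measured target genes of the PPAR receptors, 2 rose and 1 fell at 12 h, 2 rose and 0 fell at 24 h, and 2 rose and 2 fell at 72 h. Angptl4, an inhibitor of lipoprotein lipase, rose at every time (0.81 ± 0.19, 1.01 ± 0.22 and 1.04 ± 0.19, with limma adjusted p of 0.0180, 0.00700 and 0.00341), though its dim second probe set was not called. Acaa2, a thiolase of fatty acid oxidation, rose by 0.60 ± 0.10 at 72 h (limma adjusted p = 0.00245), whereas Pdk4, which holds back glucose oxidation, fell by 1.43 at 12 h (limma adjusted p = 0.0130) and Acaa1a by 0.56 at 72 h (limma adjusted p = 0.0231). The median difference of this list at 72 h was 0.05, beside 0.01 over all genes.

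Of 14 genes of lipid droplets and their breakdown, 1 rose at 12 h, 2 rose and 2 fell at 24 h and 1 rose at 72 h. Cidea, a lipid droplet protein that helps droplets fuse, rose at every time, by 1.81 ± 0.18 at 12 h (limma adjusted p = 2.86e-05), 0.78 ± 0.21 at 24 h (0.0247) and 0.91 ± 0.18 at 72 h (0.00694). At 24 h Gpam, which starts glycerolipid synthesis, had -0.63 ± 0.16 (limma adjusted p = 0.0199) and Plin3, a droplet coat protein, -0.97 ± 0.29 (limma adjusted p = 0.0423), and Cidec was at the floor in every group. Of 8 measured genes of endocannabinoids and eicosanoids 6 were at the floor, with 0 called at 12 h, 2 higher at 24 h and 1 higher at 72 h: Ptgs2 and Alox15 at 24 h were floor-level, and Pla2g4a, the cytosolic phospholipase that frees arachidonic acid, rose by 1.0 ± 0.16 at 72 h (limma adjusted p = 0.00172; chosen after its values were seen). Cnr2 and Ptges were at the floor. In a fit of the 24 h set alone (6 arrays), 0 of the 10 list calls at 24 h held (limma adjusted p = 0.0811 to 0.313). Leaving out each of the 18 arrays in turn, the calls of Dbi, Acsl4, Rxrb and Pdk4 at 12 h, of Acaa2, Slc27a2 and Pla2g4a at 72 h, of Cidea at 12 h and 72 h and of Angptl4 at 24 h and 72 h held in all 18 fits, whereas the other list calls did not. At 12 h Angptl4 held in 16, Slc27a3 in 13, Acaa2 in 3 and Rbp7 in 2. At 24 h Cidea, Cidec, Gpam and Slc27a1 held in 15, Ptgs2 in 14, Slc27a4 in 12, Cyp4a14 in 8, Plin3 in 7 and Alox15 in 2. At 72 h Cd36 and Acaa1a held in 13 and Pdk4 in 5.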

How the data were processed

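Whole-testis RNA of 18 hpg mice, 1 array each, was read on Affymetrix MOE430A arrays. The deposited table holds 1 value per probe set and array. It names no scale, and its values, 1.04 to 15.2, were read as log2 expression that the authors had made with RMA or GCRMA, both named in the submitters' processing notes, and which of them gave the table is not given in the sources used here. Of 22690 probe sets, 64 controls of the array were left out, no filter was set on low values, and 20380 had 1 gene symbol, 691 several and 1555 none.

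The test was that of limma 3.58.1 under R 4.3.3, two-sided, on 1 linear model (lmFit, then eBayes) with 5 group means over all 18 arrays, which leaves 13 residual degrees of freedom: 12 h, 24 h, 72 h, controls 4 to 7 and controls 1 to 3. P-values were adjusted by Benjamini-Hochberg over 22626 probe sets. The fit was tested on simulated data. Each p-value weighs a difference against an estimate of the spread between mice within groups, shared by all 5 groups. The number of arrays limits the precision. Litters and days are not given, so replicate numbers were checked. Same-numbered 24 h and control arrays deviated together in all 3 pairs (r 0.120 to 0.476), which was taken as pairing by a rule on correlations. Of 4 pairs of 12 h and 72 h arrays 2 passed 0.1 (r -0.01 to 0.144), so those were not paired. Of 48 pairs with different numbers 15 also passed 0.1 (up to 0.544), among them 24 h replicate 2 with control 1 (0.180). The pairing is therefore an assumption read from these same data.

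The members and the gene lists were chosen with earlier results of these data known. A list gene was represented by its brightest probe set, and up to 4 genes a list were named, taking the lowest p-values at the time that gave most calls. For Fabp5 the 8 most similar and 4 most opposite genes were named, and for other members above the floor the 3 most similar. Alternatives were no array set term, 1 set alone, quantile normalization, filters on dim probe sets, a trended robust prior, replicate blocks, and leaving out each array. The block for the 24 h set and the list counts without controls 1 or 6 were chosen after seeing the data.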

Additional observations from a re-analysis of the deposited data

Results flagged for a closer look

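Control 1 stood apart from the other 6 controls in both Fabp4 probe sets above the floor. It read 7.58 in 1417023_a_at, where the next control read 4.61, and 6.58 in 1451263_a_at, where the next read 4.61, gaps of 0.674 and 0.678 of the range, above the 95% critical value for 7 samples. It was also the control with Adipoq at 4.92. These were 2 of the 42 groups of member values looked at, and chance sets about 1 group in 20 apart.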

How the results depend on the processing

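Of 2387 recomputed values of single Fabp probe sets, 2336 kept their side of the threshold or, for Fabp5 against the controls, their size. A call was lost in 4 (all Fabp1 1448764_a_at at 24 h) and gained in 46, and 1 moved (Fabp5 1416022_at at 24 h, to 3.44 without the array set term). A change of sign counted as reversed only where either fit was called or for Fabp5 against the controls (0 reversed). Uncalled values did change sign, such as Fabp9 1417076_at at 12 h, from -0.53 to 0.08 without control 6. Counts of all probe sets moved more. Without the array set term the 24 h count was 8137 (64.9% higher, against 45.7%), with 9 of the 14 Fabp probe sets (counts of members here include the 2 of Fabp5), 24 h against 12 h gave 9098 (8 members) and 72 h against 24 h gave 7001 (7 members). The 6 arrays of the 24 h set alone gave 393. That fit has its own estimate of the spread and fewer residual degrees of freedom, and the part of each in the lower count was not tested. Testing only probe sets with a mean of at least 4, or of at least 5, gave 1 member (Fabp3) for 72 h against 12 h and 2 members between the control sets (Fabp4 1451263_a_at and Fabp5 1416022_at). With a replicate block over all groups, numbers 5, 6 and 7 hold a single control each, so the mean of controls 4 to 7 rests on control 4. The counts were then 255 at 12 h, 244 at 72 h, 324 for 72 h against 12 h (1 member, Fabp3), 52 for 24 h against 12 h, 43 for 72 h against 24 h and 98 between control sets. With the block in the 24 h set alone, where the numbers were assumed to pair the arrays, they were 4827 at 24 h, 650 for 24 h against 12 h, 301 for 72 h against 24 h and 3703 between control sets (3 members), and beyond the Fabp1 and Fabp4 values given with the results it changed no member's call against the FSH times. Floor-level members numbered 4 with the floor at 3. Of the 8 genes most like Fabp5, 5 were shared over the 12 arrays of the first set and 1 by rank correlation.

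Leaving out each array in turn, calls ranged from 1678 (without control 1) to 3848 (without 24 h replicate 1) at 24 h, from 290 (without 12 h replicate 3) to 579 for 72 h against 12 h, where 12 h replicate 4 and 72 h replicate 2 also counted, from 94 to 756 for 24 h against 12 h, from 46 to 399 for 72 h against 24 h, and from 1271 (without control 2) to 2650 between control sets. Member calls ranged from 3 to 5 at 72 h, where control 1 gave the 5, and from 0 to 1 for 72 h against 12 h and between control sets. The cause of these shifts was not tested. At the floor a value is only a bound, so an absent call for Fabp2, Fabp6 and Fabp7 shows no lack of change, and the spread of Fabp9 and Fabp4 between mice limits what 3 or 4 arrays a group can show.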
